A study of Saccharomyces paradoxus and Saccharomyces cerevisiae and Nakaseomyces glabratus with 58 samples.

Results

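The comparison described here follows a Saccharomyces paradoxus strain without SFP1 (delta sfp1 in the labels) between 30 and 60 min after glucose was returned to the cells. It rests on 6 of the 58 samples of the series, 3 libraries at 30 min and 3 at 60 min, lettered A to C at each time, and covers all genes: 4908 of the 6038 genes in the count table passed a filter on low counts and were tested. The series sequenced polyadenylated RNA from several yeast species with and without SFP1. In S. paradoxus there were 18 libraries in 6 groups of 3: wild type and deletion at 30 min, at 60 min and in log phase at an optical density of 0.6 to 0.8. The labels call both early times lag phase and name the medium only by the abbreviation BMW. They give the deletion as the sole allele, and they do not state the parent strain, how the deletion was made, the mating type, the number of clones, or how long glucose had been absent. Wild type libraries of the same times serve below for a test of whether a change differed between strains, and deletion libraries from log phase give a level for orientation. The labels do not say whether letters stand for separate cultures, so p-values measure only the spread between these samples, which may be technical.

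In Saccharomyces cerevisiae, the close relative in which it has been studied most, Sfp1 is a zinc finger transcription factor that raises the transcription of ribosomal protein and ribosome assembly genes when nutrients are plentiful, and the kinases TORC1 and PKA control its activity and its place in the cell. When S. cerevisiae cells that lacked glucose receive it again, they raise ribosome production and growth, and they repress genes for respiration and for the use of other carbon sources. Gene names below are the S. cerevisiae names of each gene's orthogroup (a family of genes that descend from a common ancestor). Where an orthogroup holds several S. cerevisiae names, all are printed with the S. paradoxus gene ID, since the files do not say which of them is the counterpart. Where an orthogroup also holds several S. paradoxus genes, short reads may have been divided among near-identical copies, and those values are uncertain.

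Total counts were 34081, 503270 and 582951 in deletion replicates A, B and C at 30 min and 418292, 559278 and 602038 at 60 min. Replicate A at 30 min stood apart by its depth: 609 genes had at least 10 counts in it, against 3999 and 4231 in replicates B and C. In that library 1 count was worth 27.0 CPM (counts scaled to a common library size), and the 3 counts that a reading of 0 allows were worth 80.9 CPM, against 4.22 to 7.13 CPM in the other 5, a limit that covers counting error only. Levels under about 80.9 CPM therefore say little in that library. Before scaling, the share of cytosolic ribosomal proteins in it was close to that of its 2 replicates. They took 10.2%, 10.2% and 9.97% of the counts of replicates A, B and C. SFP1 itself (Spar_12.540) had 0 counts in all 6 deletion libraries, and in wild type it stood at 177 CPM ± 18.5 (SD, n = 3) at 30 min and 131 CPM ± 9.10 (SD, n = 3) at 60 min. CPM are relative to the other RNA of a library scaled by TMM factors, and in such bulk samples fewer cells of a kind and less RNA per cell cannot be told apart. At 30 min these factors were 1.0919, 0.8381 and 0.9007 in deletion replicates A, B and C. At an equal share of counts, CPM are therefore lower in replicate A than in B and C.

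Between 30 and 60 min the deletion strain lowered more genes than it raised in the main fit, a balance that turned with other scaling and with no filter on low counts. At an adjusted p below 0.05 (edgeR's quasi-likelihood test with Benjamini-Hochberg adjustment, used for every adjusted p below), 1113 of 4908 genes changed, 22.7% of those tested. Of these, 391 genes (7.97%) were higher at 60 min and 722 (14.7%) were lower. These 2 shares of all genes are the background for every list count in the deletion below. The change was at least 2-fold for 114 of the genes that rose and for 217 of those that fell, and the median gene moved by -0.01 on the log2 scale. Both counts depended on how libraries were scaled: with library totals alone in place of TMM factors every gene shifted upward, by 0.42 log2 at the median, and 1713 genes were then higher and 300 lower. They depended on the filter too: with TMM factors kept and no filter on low counts, 688 were higher and 566 lower. One library also weighed on the count of higher genes. Without replicate B at 30 min 226 genes were higher, whereas without the shallow replicate A the counts were 374 higher and 774 lower. When all lag libraries were thinned to the depth of that library, 1014 genes could be tested and 73 were higher and 101 lower. Calls of single genes that were lost in this thinned fit are not noted beside the genes below. In wild type over the same interval 1795 genes (36.6%) passed, 821 of them higher (16.7%) and 974 lower (19.8%). Many genes below were named for a large change, so absence of overlap between their times is a description and adds no support. The share of all genes without overlap is not given here.

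The calls of the strains overlapped in part. Of the 391 genes that rose in the deletion, 201 also rose in wild type, which is 51.4% of the deletion's calls and 24.5% of the wild type's 821, and 28 fell there. Wild type had the same sign for 321 of the 391, and 16.7% of all genes rose in it. Of the 722 that fell, 375 also fell in wild type, 51.9% of the deletion's calls and 38.5% of the wild type's 974, and 84 rose there. Wild type had the same sign for 524 of the 722, and 19.8% of all genes fell in it. Over all genes tested the log2 fold changes of the strains had a Pearson correlation of 0.46 and a Spearman correlation of 0.45, given as a description across genes, which are not independent. The test of the difference itself, the change in the deletion minus the change in wild type, passed for 752 genes (15.3%), 368 with a higher value in the deletion (7.50%) and 384 with a lower one (7.82%).

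**Figure D1:**
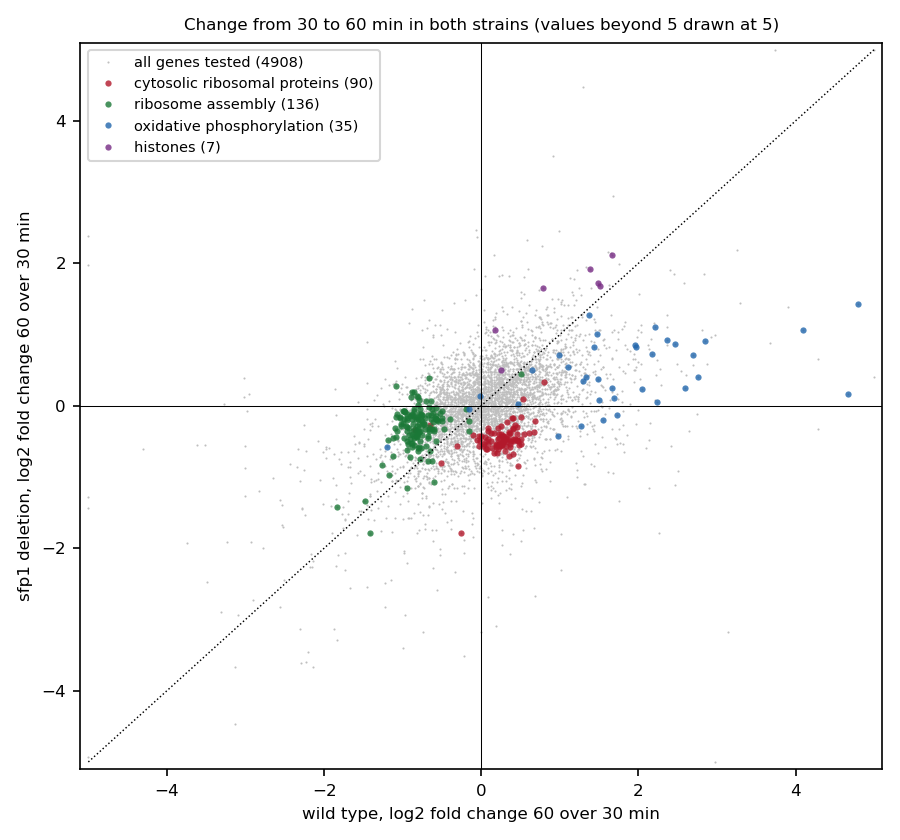
Log2 fold change from 30 to 60 min in wild type (x axis) and in the sfp1 deletion (y axis), TMM-scaled, 1 point per gene tested (4908) with 4 gene lists coloured; the dotted line marks equal change. The list medians are 0.27 in wild type and -0.48 in the deletion for ribosomal proteins, -0.81 and -0.26 for ribosome assembly, 1.66 and 0.40 for oxidative phosphorylation, and 1.39 and 1.68 for histones.

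In the scatter of both strains, gene groups of known function separated into distinct places. Cytosolic ribosomal proteins, which form the translating ribosome together with ribosomal RNA, moved in opposite directions in the strains. Of 90 such genes, 77 were lower at 60 min in the deletion, against 14.7% of all genes. Their median log2 fold change was -0.48 against -0.01 over all genes. By edgeR 0 were higher (1 at an unadjusted p below 0.05, and 0 by DESeq2). In wild type 53 of the 90 were higher and 5 lower, against 16.7% and 19.8% of all genes, with a median of 0.27. The difference between strains passed with a lower value in the deletion for 79 of the 90, against 7.82% of all genes, and its median was -0.74.

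The ribosomal protein fall is a fall relative to other genes, and the deletion's own count of lower genes rested on the scaling. With library totals alone, 6 of the 90 were lower and 3 higher in the deletion, with a median of -0.08, while 66 still had a lower change than in wild type. As a share of all counts the 90 genes took 10.2%, 10.2% and 9.97% at 30 min in replicates A to C of the deletion and 9.50%, 9.81% and 9.60% at 60 min. The wild type share was 13.7% ± 0.153 (SD, n = 3) at 30 min and 18.9% ± 0.416 at 60 min, so the share was nearly level in the deletion and grew in wild type. Of the small and large subunit genes, 31 of 36 and 46 of 54 were lower in the deletion, with medians of -0.44 and -0.49. Without replicate B at 30 min 19 of the small subunit genes were lower, and without the shallow replicate A 80 of all 90 were.

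Individual ribosomal protein genes moved by modest amounts. RPS3, a protein of the small subunit, stood at 3126, 4328 and 3784 CPM in replicates A, B and C at 30 min and at 2484, 2512 and 2321 CPM at 60 min. All 3 early libraries were above all 3 late ones, with a log2 fold change of -0.66 ± 0.09 (standard error, as for every value after ± beside a fold change; adjusted p = 1.3e-06), and the wild type mean went from 4671 to 5373 CPM. The largest fall on the list belonged to RPL7A/RPL7B (Spar_16.125), a large subunit protein with a second copy in this species, from 216, 347 and 380 CPM to 119, 108 and 85.8 CPM. Its change was -1.78 ± 0.14 (adjusted p = 2.6e-12).

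Other members showed the range of the list. RPS10A/RPS10B (Spar_13.412), of the small subunit, went from 270, 266 and 241 CPM to 128, 186 and 157 CPM, a change of -0.67 ± 0.15 (adjusted p = 6.0e-04) that was lost with library totals alone (-0.26). RPP0, the base of the ribosomal stalk, fell by 0.41 ± 0.10 (adjusted p = 0.00160) from 3800, 4418 and 4107 CPM to 3283, 2987 and 3094 CPM, and its call too was lost with library totals alone (-0.05). RPL3, a core protein of the large subunit, was near the limit of the test at -0.31 ± 0.09 (adjusted p = 0.00858). Its call was lost without replicate B at 30 min (-0.23), without replicate C at 60 min (-0.28), with no filter on low counts (-0.19), in a fit of the 6 deletion lag libraries only (-0.27) and with library totals alone, where the value was 0.05. For RPS3, RPL7A/RPL7B (Spar_16.125), RPS10A/RPS10B (Spar_13.412) and RPL3 the difference from wild type passed, at -0.86 ± 0.13, -1.52 ± 0.17, -1.08 ± 0.18 and -0.52 ± 0.12. For RPP0 it did not, at -0.30 ± 0.14 (adjusted p = 0.149).

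**Figure D2:**
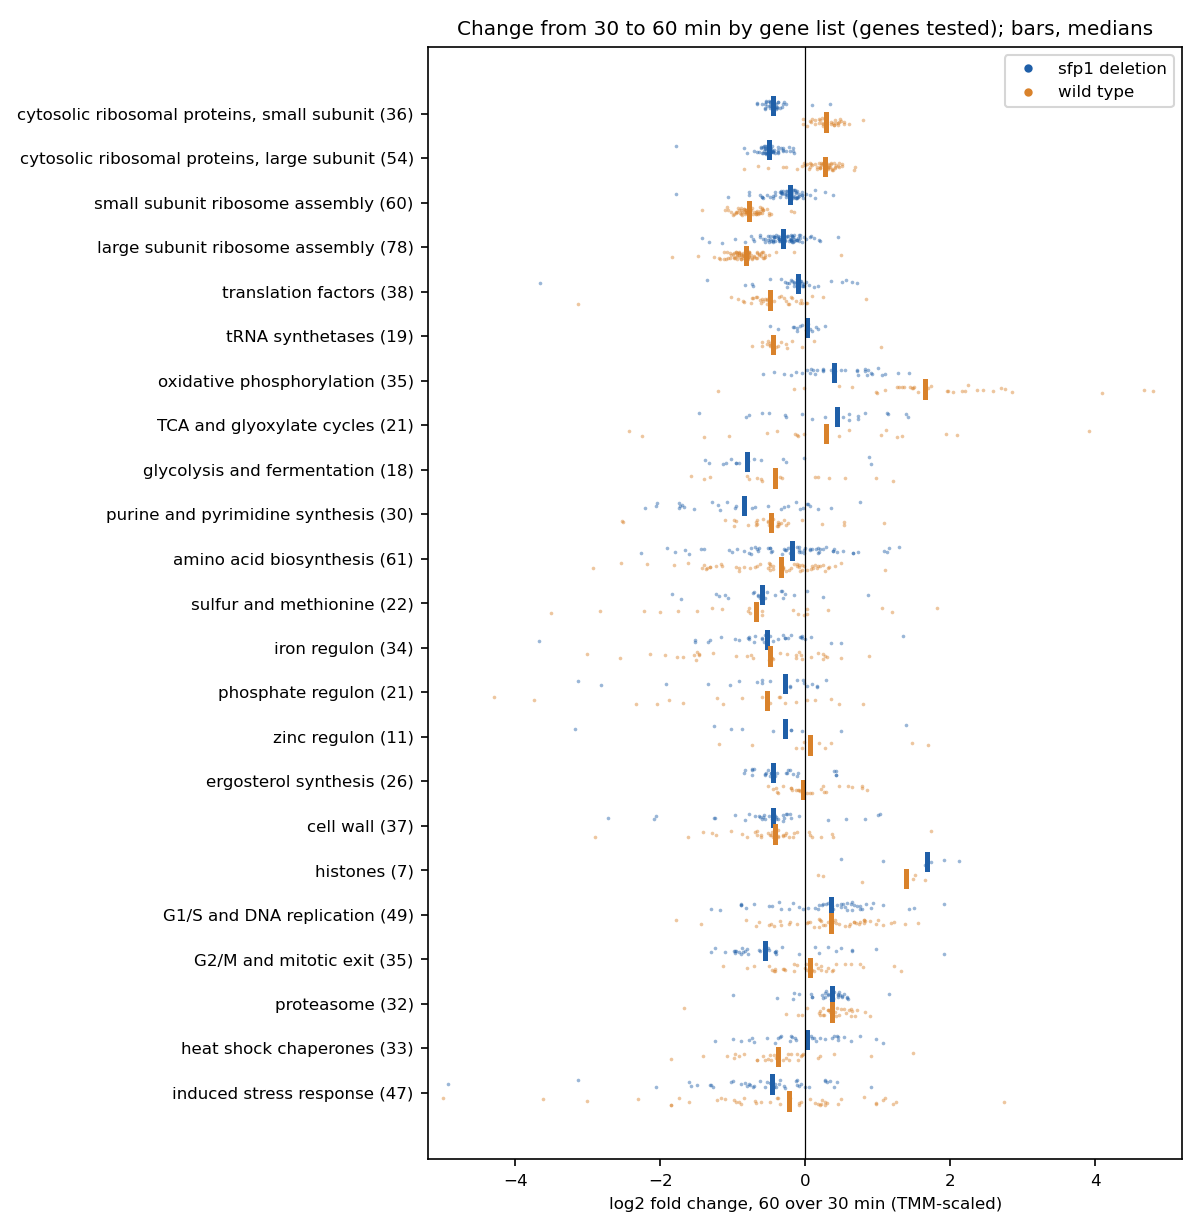
Log2 fold change from 30 to 60 min (x axis, TMM-scaled, values beyond 5 drawn at 5) for the tested genes of 23 lists, 1 point per gene and a bar at each median, in the sfp1 deletion (blue) and in wild type (orange). Medians lie on opposite sides of 0 for ribosomal proteins (-0.44 and -0.49 against 0.28 and 0.27), and the oxidative phosphorylation median is 0.40 in the deletion against 1.66 in wild type.

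Ribosome assembly factors, which process ribosomal RNA and build the subunits in the nucleolus, showed the reverse relation between the strains. In wild type 131 of 136 were lower at 60 min, against 19.8% of all genes, with a median of -0.81. In the deletion 37 of the 136 were lower, against 14.7% of all genes, with a median of -0.26. By edgeR 0 were higher there (1 at an unadjusted p below 0.05, and 0 by DESeq2). The change was higher in the deletion than in wild type for 61 of the 136, against 7.50% of all genes, and the count with a lower change was 0 by edgeR (2 at an unadjusted p below 0.05, and 0 by DESeq2). The levels of these genes already differed between strains at 30 min: their share of all counts was 3.17% ± 0.155 (SD, n = 3) in the deletion against 7.21% ± 0.193 in wild type, and at 60 min 3.04% ± 0.155 against 4.50% ± 0.211. With library totals alone the deletion median turned to 0.15, with 13 genes higher and 8 lower. Without replicate B at 30 min 24 of the 136 were lower, and without replicate A 47 were.

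NSR1, a nucleolar protein needed for processing of ribosomal RNA, went from 3073, 4944 and 4311 CPM at 30 min to 1251, 1242 and 1227 CPM at 60 min. The times were far apart, at -1.78 ± 0.11 (adjusted p = 2.4e-14), beside -1.42 ± 0.11 in wild type. The RNA helicase genes DBP2 and DBP3 fell by 1.42 ± 0.15 and 1.15 ± 0.11, beside -1.84 ± 0.13 and -0.94 ± 0.09 in wild type, DBP2 from 728, 823 and 739 CPM to 286, 298 and 281 CPM and DBP3 from 620, 763 and 659 CPM to 332, 298 and 318 CPM. Neither gene overlapped between times, which adds no support, as both were named for a large change among called members. NOP1 and NOP58, core proteins of the complexes that methylate ribosomal RNA, fell by 0.77 ± 0.12 and 0.78 ± 0.10, and SNU13, a protein of the same complexes, by 1.07 ± 0.14, beside wild type values of -0.68, -0.63 and -0.60. BUD20, an export factor of the large subunit, fell by 1.33 ± 0.20 (adjusted p = 3.4e-06), beside -1.48 ± 0.15 in wild type, with 4 counts in the shallow library. For none of these 7 genes did the difference between strains pass, with adjusted p from 0.0820 for SNU13 to 0.785 for NOP1, which does not show that the falls were equal.

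Of 34 genes of RNA polymerases I and III and their factors, 1 was higher and 3 lower at 60 min, where 7.97% and 14.7% of all genes were. In wild type 1 was higher and 17 lower, and with library totals alone 10 were higher and 1 lower in the deletion. RPA190, the largest subunit of RNA polymerase I, stood at 512, 754 and 712 CPM at 30 min and at 546, 606 and 576 CPM at 60 min. The libraries of the times overlapped, and the value of -0.30 ± 0.11 did not pass (adjusted p = 0.0542), though it did without replicate A at 30 min (-0.35), with a filter of at least 10 counts in 3 deletion lag libraries (-0.30) and in a fit of the 12 lag libraries only (-0.30), and it was 0.11 with library totals alone. In wild type it went from 2428 to 1282 CPM, and the difference of 0.63 ± 0.15 passed (adjusted p = 0.00270). Of 19 tRNA synthetases, which load amino acids onto transfer RNAs, 1 was lower in the deletion and 15 in wild type. The shares of all genes were 14.7% and 19.8%. Scaled by library totals alone 15 were higher in the deletion, and their share of all counts went from 0.582% ± 0.0264 (SD, n = 3) to 0.734% ± 0.00700. The one in the deletion was ALA1, at -0.38 ± 0.10 (adjusted p = 0.00325), whose call was lost with no filter on low counts (-0.24) and with library totals alone (0.02).

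Of 38 translation factors 6 were lower and 3 higher in the deletion, near the 14.7% and 7.97% of all genes. In wild type 24 were lower, against 19.8% of all genes. With library totals alone the balance turned, with 5 lower and 18 higher in the deletion. Without replicate A at 30 min 10 were lower. TEF2/TEF1 (Spar_16.436), the elongation factor that brings transfer RNAs to the ribosome, went from 19541, 31989 and 26422 CPM to 14931, 15055 and 14324 CPM, at -0.83 ± 0.11 (adjusted p = 4.2e-07). TMA19, a ribosome-associated protein, went from 1563, 2202 and 1778 CPM to 721, 761 and 758 CPM. Both genes were higher in every library at 30 min, which is given as a description only. TMA19 fell by 1.36 ± 0.11 in the deletion and moved by 0.01 ± 0.10 in wild type, so that the difference of -1.37 ± 0.15 passed (adjusted p = 8.8e-08). SSB2/SSB1 (Spar_14.132), a chaperone that binds new chains at the ribosome, read -0.88 ± 0.09 against -0.03 ± 0.08, from 4205, 4782 and 4250 CPM to 2459, 2411 and 2393 CPM. The steepest fall on the list was that of TEF4/CAM1/YGR201C (Spar_7.558), of a family related to an elongation factor subunit, from 53.9, 80.9 and 101 CPM to 2.09, 9.02 and 8.44 CPM, at -3.66 ± 0.36 beside -3.13 ± 0.25 in wild type. GCD1, a subunit of the exchange factor of translation initiation, rose by 0.65 ± 0.15 (adjusted p = 0.00184), from 27.0, 99.9 and 97.4 CPM to 153, 152 and 143 CPM, where the 27.0 is 1 count.

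Genes of oxidative phosphorylation, which encode the respiratory chain and the ATP synthase, rose in both strains and by less in the deletion. In the deletion 15 of 35 were higher at 60 min, against 7.97% of all genes, and 1 lower, with a median of 0.40. In wild type 31 were higher, against 16.7% of all genes, with a median of 1.66. The change was lower in the deletion for 26 of the 35, against 7.82% of all genes, and their median difference was -1.41. These genes started from a higher level in the deletion: they took 0.775%, 0.741% and 0.767% of the counts in replicates A to C at 30 min and 1.34%, 1.32% and 1.36% at 60 min, against 0.287% ± 0.0156 (SD, n = 3) and 0.883% ± 0.0297 in wild type. In log phase the share in the deletion was 1.95% ± 0.0208. The rise did not depend on the shallow library, without which 15 were higher and 1 lower, and with library totals alone 29 were higher.

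ATP3, the gamma subunit of the ATP synthase, stood at 162, 264 and 218 CPM at 30 min and at 464, 484 and 552 CPM at 60 min. The times did not overlap, and the change of 1.10 ± 0.12 (adjusted p = 1.0e-08) was smaller than the wild type's 2.21 ± 0.14, with a difference of -1.11 ± 0.19. SDH9/SDH1 (Spar_11.107), the flavoprotein of succinate dehydrogenase, rose from 53.9, 59.5 and 61.1 CPM to 159, 165 and 117 CPM, by 1.28 ± 0.20 against 1.37 ± 0.20 in wild type. SDH2, the iron-sulfur subunit of the same enzyme, read 0, 26.2 and 11.5 CPM at 30 min and 39.7, 43.6 and 54.8 CPM at 60 min, where a reading of 0 in replicate A allows up to 80.9 CPM. Its rise of 1.43 ± 0.33 was lost without replicate C at 30 min (0.96), and its difference of -3.37 ± 0.77 from wild type, where it went from 1.50 to 42.1 CPM, was lost without replicate B at 30 min (-2.69). In the wild type libraries at 30 min 3 counts were worth 5.49 to 7.23 CPM, above that 1.50 CPM. NDE2/NDE1/NDI1 (Spar_13.21), an NADH dehydrogenase of the mitochondrial inner membrane, rose by 1.06 ± 0.25, and its difference was -3.03 ± 0.49 (adjusted p = 2.8e-05). CYC1/CYC7 (Spar_10.315), cytochrome c, was the single lower call at -0.43 ± 0.14 (adjusted p = 0.0240), from 189, 461 and 388 CPM to 320, 298 and 290 CPM. Its times overlapped, and the call was lost without replicate B (-0.27) or C (-0.49) at 30 min and without replicate B (-0.42) or C (-0.40) at 60 min, by DESeq2 (-0.37), with no filter (-0.29), with the replicate letter as a block (-0.41) and with library totals alone (-0.01), while its rise in wild type made the difference -1.41 ± 0.21 (adjusted p = 1.1e-05).

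The tricarboxylic acid and glyoxylate cycles, which oxidise acetyl units or turn them into sugar precursors, had 8 of 21 genes higher and 4 lower in the deletion. The shares of all genes were 7.97% and 14.7%, and with library totals alone the counts were 13 and 1. IDH1, a subunit of isocitrate dehydrogenase, went from 243, 254 and 218 CPM to 510, 526 and 516 CPM, at 1.14 ± 0.12 (adjusted p = 2.9e-09). All 3 late libraries were far above the early mean of 238 CPM, and wild type rose by 1.04 ± 0.14. KGD2, of the oxoglutarate dehydrogenase complex, rose by 1.42 ± 0.20 (adjusted p = 8.5e-07) and had no counts in the shallow library. FUM1, fumarase, went from 323, 447 and 468 CPM to 1033, 910 and 988 CPM, a rise of 1.13 ± 0.11 (adjusted p = 7.1e-10). In wild type FUM1 fell by 0.53 ± 0.13, from 250 to 173 CPM, so that the difference of 1.65 ± 0.17 was among the 8 largest with a higher value in the deletion (adjusted p = 1.4e-08).

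The 2 genes of the citrate synthase orthogroup CIT2/CIT1 parted ways. Spar_14.363 rose in the deletion from 108, 126 and 149 CPM to 358, 319 and 396 CPM, by 1.39 ± 0.15 (adjusted p = 4.8e-09), and in wild type from 8.12 to 126 CPM. Spar_3.84 read 80.9, 197 and 197 CPM at 30 min and 165, 97.8 and 124 CPM at 60 min in the deletion, and from 9.62 to 42.2 CPM in wild type. For Spar_3.84 the times overlapped and the fall of 0.59 ± 0.18 (adjusted p = 0.0174) was lost when replicate B (-0.55) or C (-0.55) at 30 min, or replicate B (-0.43) or C (-0.57) at 60 min, was left out, by DESeq2 (-0.52), with no filter (-0.45) and with library totals alone (-0.17). Both had a lower change than in wild type, at -2.52 ± 0.36 and -2.69 ± 0.43. PYC2/PYC1 (Spar_7.227), pyruvate carboxylase, fell alike in both strains, by 1.46 ± 0.11 in the deletion (adjusted p = 1.5e-12) and by 1.40 ± 0.13 in wild type. RPM2, a protein of mitochondrial RNase P and of mitochondrial import, rose by 0.88 ± 0.18 from 296, 112 and 151 CPM to 249, 263 and 264 CPM, with the shallow library above all 3 of the late ones. Wild type RPM2 went from 24.9 to 322 CPM, a difference of -2.80 ± 0.31 (adjusted p = 8.8e-08).

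**Figure D3:**
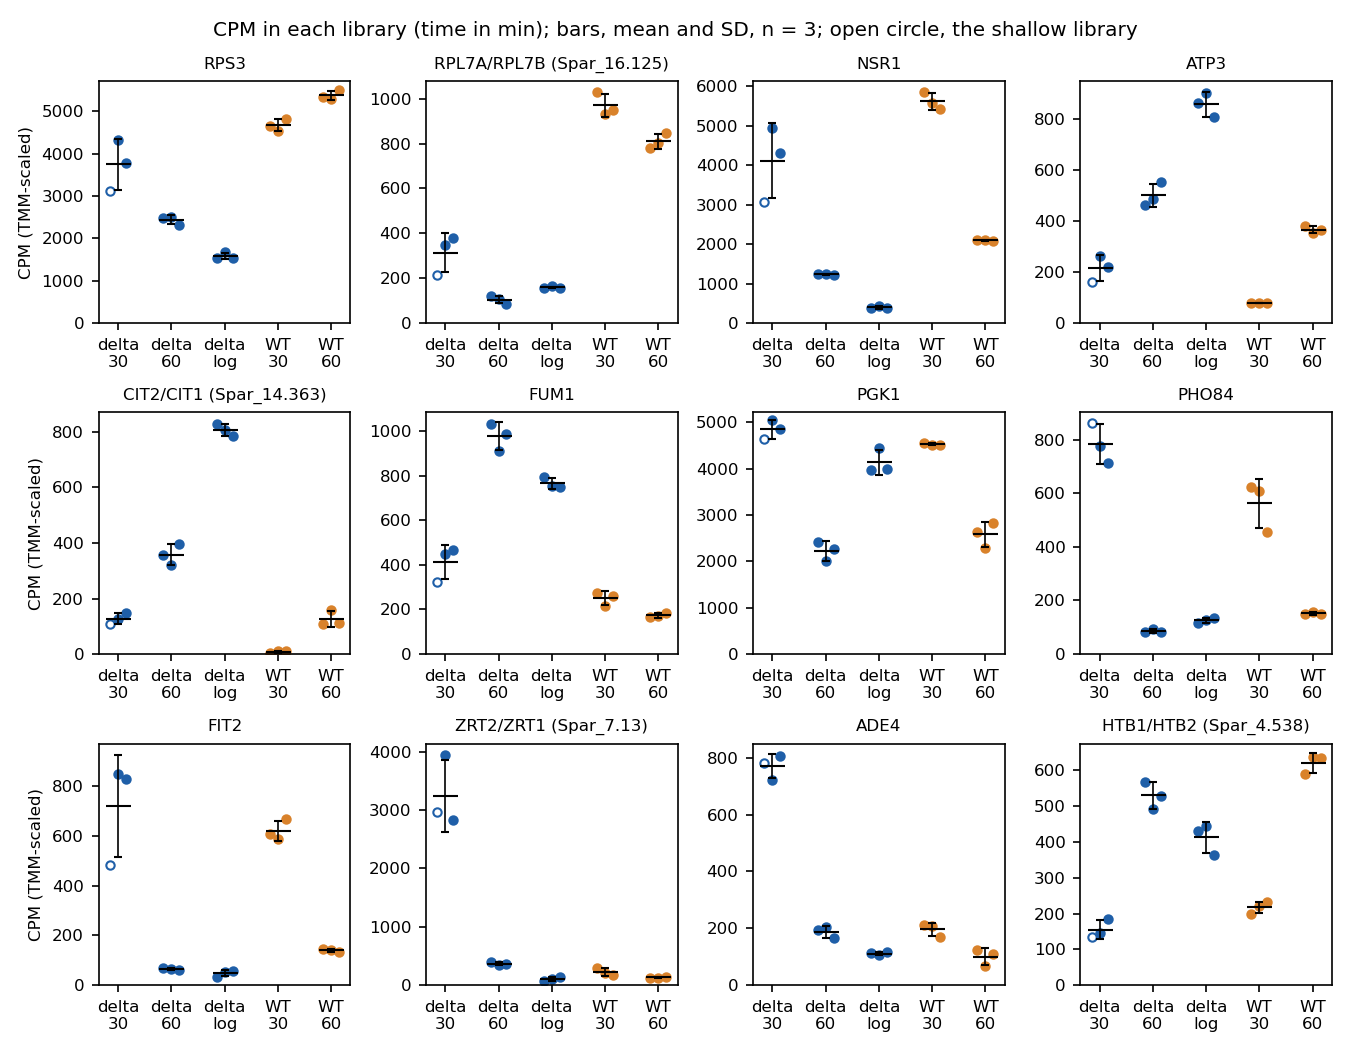
CPM (y axis, TMM-scaled, from 0) of 12 genes in each library of the deletion (blue; 30 min, 60 min and log phase) and of wild type (orange; 30 and 60 min), with mean and SD (n = 3); the open circle is the shallow library. PHO84, FIT2, ZRT2/ZRT1 (Spar_7.13) and ADE4 drop between 30 and 60 min in the deletion while ATP3, CIT2/CIT1 (Spar_14.363), FUM1 and HTB1/HTB2 (Spar_4.538) climb, with no overlap between the times. Absence of overlap was a condition for genes named as a largest rise or fall.

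Glycolysis and fermentation genes, which turn glucose into pyruvate and ethanol, fell in the deletion. Of 18 tested, 12 were lower at 60 min, against 14.7% of all genes, and 1 higher, with a median of -0.81. In wild type also 12 were lower, against 19.8% of all genes, with a median of -0.42. These genes took 8.08%, 7.66% and 7.75% of the counts in replicates A to C at 30 min and 5.27%, 4.55% and 4.99% at 60 min, and with library totals alone 10 were still lower. In wild type the share went from 6.30% ± 0.0802 (SD, n = 3) to 5.08% ± 0.230, and in log phase it was 6.52% ± 0.123 in the deletion. PGK1, phosphoglycerate kinase, read 4636, 5053 and 4855 CPM at 30 min and 2411, 2000 and 2265 CPM at 60 min, at -1.13 ± 0.10 (adjusted p = 1.1e-10). TDH3/TDH2/TDH1 (Spar_10.280), glyceraldehyde phosphate dehydrogenase, fell by 1.38 ± 0.11 in the deletion and by 1.40 ± 0.10 in wild type. PDC6/PDC5/PDC1/THI3 (Spar_12.120), of the pyruvate decarboxylase family, went from 16845, 19928 and 19656 CPM to 8043, 6777 and 7764 CPM, by -1.33 ± 0.09. Its fall was larger than that of -0.32 ± 0.09 in wild type, with a difference of -1.01 ± 0.13 (adjusted p = 6.0e-07). HXK1/HXK2 (Spar_7.15), a hexokinase, was the single higher call at 0.91 ± 0.15, against 0.98 ± 0.09 in wild type.

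On the list of gluconeogenesis and other carbon sources 2 of 22 genes were higher and 6 lower, against 7.97% and 14.7% of all genes, and with library totals alone 5 and 4. ALD4/ALD5/ALD6 (Spar_15.593), an aldehyde dehydrogenase that makes acetate, went from 1590, 2711 and 1935 CPM to 197, 162 and 184 CPM. The change was -3.61 ± 0.14 (adjusted p = 9.4e-20), in a gene named as a largest fall, for which absence of overlap was a condition. In wild type the change was -2.30 ± 0.21, a difference of -1.31 ± 0.28 (adjusted p = 0.00106). FBP1, fructose bisphosphatase of gluconeogenesis, read 0, 28.5 and 22.9 CPM at 30 min and 8.36, 10.5 and 8.44 CPM at 60 min. Its call at -1.40 ± 0.45 was lost without replicate B (-1.21) or C (-1.50) at 30 min and without replicate C at 60 min (-1.33), and with library totals alone (-0.98). The orthogroup ICL1/ICL2/MCD1 joins isocitrate lyase of the glyoxylate cycle with a cohesin subunit (MCD1), and the files do not say which of its 3 genes is which. Spar_4.279 rose from 80.9, 64.2 and 107 CPM to 222, 229 and 209 CPM, by 1.33 ± 0.17 (adjusted p = 1.2e-07). Spar_4.279 may be the cohesin gene, so its rise cannot be read as a rise of isocitrate lyase. The other genes of the orthogroup fell from low levels, Spar_5.210 by 1.40 ± 0.39 and Spar_16.347 by 0.92 ± 0.30, each with 1 count in the shallow library at 30 min. Both calls were lost without replicate B at 30 min (-1.28 and -0.63) and without replicate C at 60 min (-0.95 and -0.90), and that of Spar_16.347 also without replicate A at 60 min (-0.86), with the replicate letter as a block (-0.85), by DESeq2 (-0.88), with no filter (-0.77) and with library totals alone (-0.49).

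Several of the steepest falls in the deletion were in genes that import or store scarce nutrients. PHO84, the high-affinity phosphate transporter, stood at 862, 775 and 714 CPM at 30 min and at 83.6, 93.2 and 81.5 CPM at 60 min. The change was 8.74-fold down, or -3.13 ± 0.14 on the log2 scale (adjusted p = 1.7e-18), and larger than the -1.88 ± 0.12 of wild type by a difference of -1.24 ± 0.19. The acid phosphatase gene PHO11/PHO12/PHO3/DIA3/PHO5 (Spar_2.251) went from 189, 369 and 325 CPM to 46.0, 42.1 and 53.4 CPM, at -2.82 ± 0.16 with a difference of -1.60 ± 0.21. A second gene of that orthogroup, Spar_8.343, behaved otherwise: it read 53.9, 38.0 and 42.0 CPM at 30 min and 14.6, 36.1 and 26.7 CPM at 60 min in the deletion, a value of -0.60 ± 0.30 that did not pass (adjusted p = 0.163). In wild type the same gene dropped from 752 to 38.3 CPM, and the difference of 3.70 ± 0.36 was the largest with a higher value in the deletion among the genes considered for naming.

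VTC3/VTC2 (Spar_16.319), a subunit of the complex that stores phosphate as polyphosphate, showed a similar relation to wild type. In the deletion it fell from 350, 537 and 531 CPM to 115, 161 and 131 CPM, by 1.92 ± 0.16 (adjusted p = 1.1e-11). In wild type it fell from 1078 to 80.4 CPM, by 3.74 ± 0.15, so that the difference was 1.82 ± 0.23. On the phosphate list 7 of 21 genes were lower in the deletion against 14.7% of all genes, 11 in wild type, and the median of -0.28 in the deletion became 0.14 with library totals alone, where 6 were lower and 2 higher.

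FIT2, a cell wall mannoprotein that holds iron carriers, had the largest fall among the well-expressed genes considered for naming, from 485, 851 and 831 CPM to 66.9, 64.7 and 59.0 CPM. That is 12.7-fold down, or -3.67 ± 0.16 (adjusted p = 1.7e-18), beside -2.14 ± 0.14 in wild type, and the difference of -1.53 ± 0.23 passed (adjusted p = 8.0e-06). FIT3/YCR051W (Spar_15.602), fell by 1.52 ± 0.16 and HMX1, a heme oxygenase that frees iron, by 1.52 ± 0.13, HMX1 from 323, 735 and 569 CPM to 217, 214 and 217 CPM. Of 34 iron genes 13 were lower in the deletion and 16 in wild type, against 14.7% and 19.8% of all genes, with medians of -0.52 and -0.48. Without replicate B at 30 min 8 were lower in the deletion, without replicate A 12, and with library totals alone 7.

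ZRT2/ZRT1 (Spar_7.13), a zinc transporter, stood at 2965, 3950 and 2825 CPM at 30 min in the deletion and at 397, 349 and 358 CPM at 60 min, with 99.8 CPM ± 32.3 (SD, n = 3) in log phase. The fall of 3.17 ± 0.16 (adjusted p = 1.9e-16) was larger than in wild type, where the gene went from 218 CPM ± 65.9 to 130 CPM ± 14.1, and the difference was -2.43 ± 0.27 (adjusted p = 8.8e-08). ZPS1, a zinc-regulated secreted protein, fell by 1.26 ± 0.22 from 27.0, 140 and 107 CPM to 43.9, 54.1 and 47.8 CPM, where the 27.0 is 1 count in the shallow library. The second gene of the transporter orthogroup, Spar_12.210, read 27.0, 78.5 and 63.0 CPM and then 37.6, 28.6 and 35.1 CPM, at -1.02 ± 0.26 (adjusted p = 0.00383), a call lost without replicate B at 30 min (-0.85) and with library totals alone (-0.60). Of 11 zinc genes 4 were lower and 1 higher in the deletion, where 14.7% and 7.97% of all genes were, and with library totals alone 2 and 2. Spar_7.13 alone held 110 of the list's 131 counts in replicate A at 30 min, 1661 of 2123 in replicate B and 1479 of 1971 in replicate C.

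**Figure D4:**
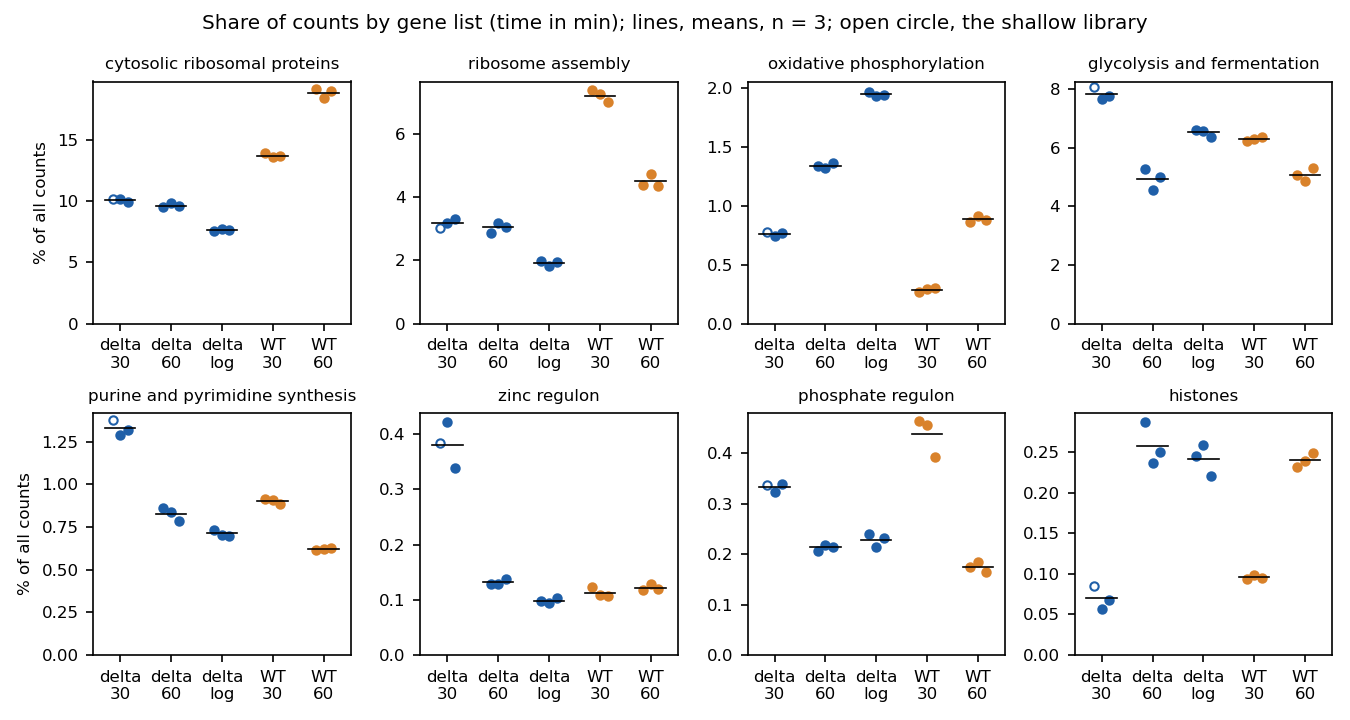
Share of all counts (y axis, percent, from 0) taken by 8 gene lists in each library of the deletion (blue; 30 min, 60 min and log phase) and of wild type (orange; 30 and 60 min), with lines at the means (n = 3); the open circle is the shallow library. The ribosomal protein share is near 10% at both times in the deletion and goes from 13.7% to 18.9% in wild type, and the zinc share, most of it from ZRT2/ZRT1 (Spar_7.13), is 0.381% at 30 min in the deletion and at most 0.137% in every library of the other groups shown.

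In the plot of shares by library the shallow library lay between its replicates on the zinc and phosphate sums and outside them on several others. Its histone share was 0.0851% (29 counts), against 0.0572% and 0.0684% in replicates B and C. For ribosome assembly it was 3.01% against 3.18% and 3.32%, and for glycolysis and fermentation 8.08% against 7.66% and 7.75%. With 3 libraries against 3, an exact permutation test cannot give a p below 0.10, so the shares are given as descriptions without a test.

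Purine and pyrimidine synthesis, with the one-carbon steps that feed it, fell in the deletion for 18 of 30 genes, against 14.7% of all genes. By edgeR 0 were higher (0 at an unadjusted p below 0.05, and 0 by DESeq2). The median was -0.84 against -0.47 in wild type, where 17 were lower. ADE4, the first enzyme of purine synthesis, went from 782, 723 and 806 CPM to 194, 205 and 164 CPM, at -2.04 ± 0.13 (adjusted p = 4.3e-14). The times were well separated, and the fall was larger than the -0.98 ± 0.16 of wild type. ADE12, which makes the precursor of adenylate, fell by 2.21 ± 0.18 from 135, 185 and 235 CPM to 50.2, 34.6 and 50.6 CPM. GCV2, of the glycine cleavage complex, fell by 2.06 ± 0.12 from 916, 866 and 800 CPM to 201, 202 and 202 CPM, and at 30 min wild type held 34.7 CPM ± 8.04 (SD, n = 3). With library totals alone 15 of the 30 were lower and 7 higher, and without the shallow library 18 were lower.

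Amino acid biosynthesis had 19 of 61 genes lower and 5 higher, where 14.7% and 7.97% of all genes were. The count of 5 higher is near that share. In wild type 32 were lower and 2 higher, where 19.8% and 16.7% of all genes were. With library totals alone the balance in the deletion turned, with 8 lower and 22 higher. SHM2, which moves one-carbon units from serine, went from 593, 811 and 827 CPM to 186, 138 and 176 CPM, at -2.27 ± 0.13 (adjusted p = 7.4e-15). CPA1, of carbamoyl phosphate synthesis for arginine, went from 1994, 2528 and 1912 CPM to 657, 569 and 516 CPM, at -1.91 ± 0.12, and SER3/SER33 (Spar_5.243), the first step of serine synthesis, fell by 1.80 ± 0.18. None of these 3 genes overlapped between times, which adds no support, as they were named for large changes among called members. CPA1 fell by more in wild type, at -2.93 ± 0.16. ILV5, of branched-chain amino acid synthesis, rose from 216, 224 and 180 CPM to 406, 469 and 411 CPM, by 1.09 ± 0.14 (adjusted p = 2.5e-07). In wild type ILV5 stood far higher and fell, from 1807 to 1124 CPM, so that the difference was 1.78 ± 0.17 (adjusted p = 8.8e-09). LEU4/LEU9 (Spar_15.313), the first step of leucine synthesis, also had a higher change than in wild type, with a difference of 2.08 ± 0.39. It was low in the deletion, at 0, 14.3 and 13.4 CPM and then 33.5, 33.1 and 23.9 CPM, against 471 and 248 CPM in wild type, and its rise of 1.16 ± 0.38 (adjusted p = 0.0250) was lost without replicate B (1.24) or C (1.17) at 30 min, without replicate A (1.09) or B (1.06) at 60 min, and with the replicate letter as a block (1.11). GCN4, the activator of amino acid synthesis genes, fell by 0.48 ± 0.10 (adjusted p = 5.2e-04), with overlapping libraries at 1348, 2005 and 1750 CPM and then 1445, 1196 and 1210 CPM, and the call was lost with library totals alone (-0.09).

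Sulfur and methionine genes were lower for 7 of 22, against 14.7% of all genes, and with library totals alone for 5. SAM1/SAM2 (Spar_12.289), which makes the methyl donor S-adenosylmethionine, fell by 1.71 ± 0.14 from 755, 1165 and 909 CPM to 328, 299 and 292 CPM, beside 1.76 ± 0.13 in wild type. SAH1, which clears its product, fell by 1.23 ± 0.10 from 2129, 2466 and 2111 CPM to 1058, 899 and 925 CPM. MUP1, the methionine permease, read 243, 214 and 157 CPM at 30 min and 136, 111 and 114 CPM at 60 min, a fall of 0.65 ± 0.17 (adjusted p = 0.00360) that was lost without replicate B at 30 min (-0.47) and with library totals alone (-0.23). In wild type MUP1 rose from 82.6 to 289 CPM, and the difference of -2.46 ± 0.23 passed (adjusted p = 6.7e-09). CHA1, a serine and threonine deaminase, went from 916, 1726 and 1383 CPM to 146, 111 and 142 CPM, at -3.46 ± 0.25 (adjusted p = 9.6e-13), and CAR2, of arginine breakdown, fell by 1.57 ± 0.19. On the list of nitrogen catabolite genes 7 of 27 were lower, against 14.7% of all genes, and with library totals alone 5 were lower and 3 higher.

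Histone genes, transcribed when cells replicate DNA, rose in the deletion more than any other list, by a median of 1.68. Of the 7 genes 6 were higher, against 7.97% of all genes. Wild type rose by a median of 1.39 with 5 of 7 higher. HTB1/HTB2 (Spar_4.538), a core histone, stood at 135, 145 and 185 CPM at 30 min and at 569, 493 and 529 CPM at 60 min, at 1.68 ± 0.13 (adjusted p = 2.7e-12). Both genes of the core histone orthogroup HTA2/HTA1 moved alike, Spar_4.539 from 53.9, 73.7 and 78.3 CPM to 385, 302 and 302 CPM and Spar_2.135 from 108, 69.0 and 91.7 CPM to 389, 247 and 314 CPM. Their changes were 2.12 ± 0.17 and 1.92 ± 0.22. HHF2/HHF1 (Spar_14.331) rose by 1.73 ± 0.21, with no counts in the shallow library. HHT2/HHT1 (Spar_14.330) rose by 1.65 ± 0.15 against 0.78 ± 0.11 in wild type, from 270, 117 and 128 CPM to 450, 378 and 406 CPM, and was one of the 2 histone genes whose difference passed, at 0.87 ± 0.19 (adjusted p = 0.00144). The histone rise was the same in direction and count without the shallow library, and 7 of 7 were higher with library totals alone.

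Genes of the passage from G1 to S phase and of DNA replication rose with the histones for 17 of 49, and 6 fell, against 20 and 7 in wild type. The shares over all genes in the deletion were 7.97% and 14.7%. Without replicate B at 30 min 10 were higher, without replicate A 16, and with library totals alone 34. PRI2, of DNA primase, rose by 1.50 ± 0.25 (adjusted p = 1.7e-05), from 0, 26.2 and 30.6 CPM to 75.3, 79.7 and 77.3 CPM. TOS4/PLM2 (Spar_12.292), a gene bound by the G1 activators, rose by 1.43 ± 0.23, from 53.9, 23.8 and 61.1 CPM to 123, 132 and 107 CPM. Both were higher in all 3 late libraries, though the values in the shallow one rest on 0 and 2 counts. CLN3, the cyclin that starts the cycle, fell instead, from 377, 385 and 357 CPM to 199, 191 and 214 CPM, by 0.88 ± 0.12 (adjusted p = 3.5e-07). Its difference from wild type was -0.65 ± 0.17, which was lost with library totals alone (-0.42). PCL2/PCL9 (Spar_4.85), a cyclin of the kinase Pho85, fell by 1.30 ± 0.30, and ASF1, a histone chaperone, by 1.17 ± 0.18, ASF1 from 27.0, 202 and 176 CPM to 77.4, 82.7 and 78.7 CPM with 1 count in the shallow library below the late ones.

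Genes of G2 to M phase and of the exit from mitosis in the deletion had 20 of 35 lower and 3 higher, against 14.7% and 7.97% of all genes. Their median was -0.55. In wild type 7 were lower and 4 higher, where 19.8% and 16.7% of all genes were, with a median of 0.06. The change was lower in the deletion than in wild type for 13 of the 35, against 7.82% of all genes. In the deletion 7 were lower and 9 higher with library totals alone. CHS2/CHS1 (Spar_2.180), of the chitin synthases that close the bud neck, fell by 1.24 ± 0.15 (adjusted p = 4.7e-08), from 323, 419 and 351 CPM to 182, 137 and 167 CPM. Its difference of -0.78 ± 0.20 was lost without replicate B at 30 min (-0.65) and with library totals alone (-0.55). PDS1, which guards the separation of chromosomes, rose by 0.98 ± 0.23 from 80.9, 38.0 and 49.7 CPM to 102, 91.7 and 81.5 CPM.

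Cell surface genes were lower for 20 of 37 in the deletion and 22 in wild type, and 3 were higher in the deletion (7 lower and 5 higher there with library totals alone). For this list and the ergosterol list below, 14.7% of all genes were lower in the deletion and 19.8% in wild type. Members of one orthogroup of the SUN family, NCA3/UTH1/SIM1/SUN4, which act in cell wall separation, moved in opposite directions. Spar_10.123 went from 1671, 2673 and 2334 CPM to 381, 364 and 332 CPM, at -2.72 ± 0.11 (adjusted p = 3.8e-19) beside -2.90 ± 0.31 in wild type. Spar_9.50 went from 323, 388 and 401 CPM up to 876, 692 and 775 CPM, at 1.0 ± 0.14, while it fell by 0.61 ± 0.13 in wild type, with a difference of 1.61 ± 0.19. Neither overlapped between times, a condition that every gene named as a largest rise or fall had to meet. PIR5/PIR1/PIR3/HSP150 (Spar_11.89), a wall glycoprotein, fell by 2.08 ± 0.18, and PMA2/PMA1, the proton pump of the plasma membrane, fell by 0.90 ± 0.09 from 11078, 11621 and 11457 CPM to 6581, 5544 and 6165 CPM. Ergosterol synthesis, which makes the membrane sterol, had 14 of 26 genes lower in the deletion and 4 lower and 6 higher in wild type, and with library totals alone 6 were lower and 5 higher in the deletion. ERG5, a late step, fell by 0.74 ± 0.10 from 809, 932 and 833 CPM to 531, 508 and 531 CPM, and IDI1, an early step, by 0.85 ± 0.12.

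Some of the largest falls lay outside these groups. PRM7, known from S. cerevisiae as pheromone-regulated, went from 135, 171 and 199 CPM to 10.5, 18 and 15.5 CPM, at -3.59 ± 0.22 (adjusted p = 1.1e-14). YGP1/SPS100 (Spar_14.179), a secreted glycoprotein made in starved cells, went from 566, 556 and 453 CPM to 46.0, 51.1 and 73.1 CPM, at -3.13 ± 0.17. NCE103, carbonic anhydrase, went from 1213, 1641 and 890 CPM to 299, 224 and 135 CPM, at -2.55 ± 0.19. Largest falls were named only where the times did not overlap, so the separation of the times in these 3 genes adds no support. They fell in wild type too, by 2.23, 2.31 and 1.45. At 30 min NCE103 stood at 1248 CPM ± 377 (SD, n = 3) in the deletion and 39.4 CPM ± 7.61 in wild type, and in log phase at 12.4 CPM ± 3.42 in the deletion. Among rises, the genes with no S. cerevisiae name Spar_2.146 and Spar_2.136 led at 2.16 ± 0.21 and 2.14 ± 0.20, and NUC1, the mitochondrial nuclease, rose by 1.55 ± 0.29 from 27.0, 11.9 and 26.7 CPM to 54.4, 63.2 and 60.5 CPM with a difference of 1.62 ± 0.33.

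On the list of genes induced by many stresses, 14 of 47 were lower, against 14.7% of all genes, and 1 was higher, with a median of -0.46. The balance was 7 lower and 6 higher with library totals alone, with a median of -0.05. SIP18/GRE1 (Spar_16.100), a desiccation protein, went from 53.9, 136 and 145 CPM to 2.09, 6.02 and 4.22 CPM, at -4.93 ± 0.38 (adjusted p = 4.9e-12), the first of these values resting on 2 counts. HSP12 and HSP104, a membrane heat shock protein and a disaggregase, were low and did not pass: HSP12 read 0, 30.9 and 15.3 CPM and then 10.5, 18 and 14.1 CPM, and HSP104 0, 35.7 and 30.6 CPM and then 10.5, 16.5 and 25.3 CPM. HSP30/MRH1/YRO2 (Spar_2.202), a membrane protein of a stress-induced family, fell by 1.90 ± 0.22 from 404, 276 and 239 CPM to 85.7, 58.7 and 71.7 CPM, and differed from wild type by -2.41 ± 0.57. Of 33 heat shock chaperones 5 were higher and 7 lower, where 7.97% and 14.7% of all genes were, against 2 and 16 in wild type. Without replicate B at 30 min the counts were 3 and 4, and with library totals alone 14 and 3. The chaperone gene SSE2/SSA3/KAR2/SSA1/SSE1/SSA2/ECM10/SSA4/SSC1 (Spar_12.48) rose from 970, 709 and 779 CPM to 1736, 1519 and 1655 CPM, by 1.08 ± 0.11 (adjusted p = 1.0e-09), and fell by 0.43 ± 0.09 in wild type from 4242 to 3145 CPM, a difference of 1.52 ± 0.14 (adjusted p = 6.7e-09). Proteasome genes, which degrade tagged proteins, were higher for 10 of 32 and lower for 2, where 7.97% and 14.7% of all genes were. Of these genes 5 were higher without replicate C at 30 min and 27 with library totals alone. Among them RPN12 rose by 1.16 ± 0.22, RPN6 by 0.59 ± 0.14 and RPN2 by 0.58 ± 0.11, while the polyubiquitin gene UBI4 fell by 1.0 ± 0.10 from 1563, 1948 and 1742 CPM to 912, 916 and 860 CPM.

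Of 38 regulators of growth signalling 5 were higher and 6 lower, against 7.97% and 14.7% of all genes, and with library totals alone 13 were higher and 4 lower. Fewer were higher without replicate B (2) or C (1) at 30 min and without replicate B (3) or C (3) at 60 min. PDE2, which breaks down cyclic AMP, fell by 1.57 ± 0.15 (adjusted p = 2.2e-10) from 189, 243 and 231 CPM to 94.1, 75.2 and 70.3 CPM. BCY1, the inhibitory subunit of the kinase PKA, rose by 1.0 ± 0.24 (adjusted p = 0.00182), a call lost without replicate C at 30 min (0.87), and it fell by 0.51 ± 0.16 in wild type, a difference of 1.52 ± 0.29. SRO9/SLF1 (Spar_3.45), an RNA-binding protein of translation, did not pass in the deletion at 0.63 ± 0.31 (adjusted p = 0.147), and its difference from wild type did, at 1.72 ± 0.37. With library totals alone its value in the deletion was 1.05, which passed. ACT1, actin, did not pass: it stood at 1968, 2033 and 2143 CPM at 30 min and at 1949, 1787 and 1771 CPM at 60 min, at -0.17 ± 0.09 (adjusted p = 0.193), and with library totals alone at 0.20.

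Markers of the alpha mating type were abundant at both times in the deletion, and the a-type markers that could be read were near 0. Of the 7 a-type names on the list, AGA2, MFA1 and MFA2 matched no gene, so the genes for a-factor could not be read. STE3, the receptor that alpha cells carry for a-factor, read 404, 385 and 462 CPM and then 504, 553 and 623 CPM, and the agglutinin SAG1 593, 778 and 1047 CPM and then 1186, 1226 and 1597 CPM. SAG1 rose by 0.61 ± 0.13, and STE3 by 0.41 ± 0.12, a call lost without replicate B at 30 min (0.31) and without replicate C at 60 min (0.32). Neither gene overlapped between times, which is given as a description only. The pheromone gene MF(ALPHA)2/MF(ALPHA)1 (Spar_16.136) fell by 0.49 ± 0.10, lost with library totals alone (-0.11). STE2, the receptor that a cells carry for alpha-factor, read 0, 23.8 and 40.1 CPM and then 14.6, 7.52 and 19.7 CPM, at -1.16 ± 0.39, a call lost without replicate C at 30 min (-0.63), without replicate B at 60 min (-0.83), with no filter (-1.01), in a fit of the 6 deletion lag libraries only (-1.09) and with library totals alone (-0.74).

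As a share of all counts the 6 alpha markers took 0.319% to 0.362% at 30 min and 0.389% to 0.502% at 60 min in the deletion, against 0.0871% to 0.104% and 0.108% to 0.118% in wild type. The 3 a markers took 0.00293% to 0.00669% and 0.00358% to 0.00465% in the deletion, against 9.4e-04% to 0.00280% and 0.00207% to 0.00439% in wild type. In the wild type libraries from log phase the relation was the reverse, with 0.0919% to 0.0937% for the a markers and 0.00271% to 0.00322% for the alpha markers. Those libraries enter no contrast here but belong to the joint fit, where they bear on the scaling, the filter, the spread and the average level used to name genes. A fit of the 12 lag libraries only called 1163 genes in the deletion, 1087 of them shared with the 1113, and the part of the marker difference between strains in other results was not tested.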

How the data were processed

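Polyadenylated RNA was sequenced as paired 25-base reads, per the labels' protocols. The authors deposited one expected count per gene and library (RSEM's estimated count), and the submitters' processing notes name RSEM 1.2.11, Bowtie 1, edgeR and the build ASM294v2. For S. paradoxus, the genome and annotation used are not stated in these sources. Of the deposited values, 94.1% were whole within 1e-06, and all were rounded. Names were joined through the deposited orthogroup table, whose other values (orthogroup numbers) the authors made: 4891 of 6038 genes have an S. cerevisiae name and 1449 share an orthogroup with another S. paradoxus gene.

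All 18 S. paradoxus libraries in 6 groups were fitted together with edgeR 4.0.16 in R 4.3.3 (TMM factors, filterByExpr, quasi-likelihood test, Benjamini-Hochberg over 4908 genes, adjusted p below 0.05). DESeq2 1.42.0 was an alternative, and tables were made with Python 3.11.15. CPM use TMM-scaled library sizes. Total counts of the 6 deletion lag libraries were 34081 to 602038, which sets the precision of low genes. Scripts were tested on simulated data. A gene belonged to 1 of the 36 lists where at least 0.5 of its orthogroup's names did. Members and lists were chosen with earlier results of these data known.

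The 167 named genes are the 10 largest rises and falls past the threshold whose average log2 CPM reached 6, with no overlap between times, up to 3 called members per list and direction, a fixed panel with mating-type markers, and the 8 largest differences between strains in each direction. Alternatives changed the scaling, the filter, the libraries fitted, the tool, a replicate block, the depth, and each library in turn. Replicate letters were checked for pairing. Some genes that meet the rule are not reported here.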

Additional observations from a re-analysis of the deposited data

Results flagged for a closer look

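The change from 30 to 60 min differed between the deletion and wild type for 368 genes with a higher and 384 with a lower value in the deletion, by edgeR's test of the difference itself over all genes. The genes described above that passed this test are listed here by the log2 change in the deletion minus that in wild type, in order of size. The higher values were 3.70 for PHO11/PHO12/PHO3/DIA3/PHO5 (Spar_8.343), 2.08 for LEU4/LEU9 (Spar_15.313), 1.82 for VTC3/VTC2 (Spar_16.319), 1.78 for ILV5, 1.72 for SRO9/SLF1 (Spar_3.45) and 1.65 for FUM1. They went on with 1.62 for NUC1, 1.61 for NCA3/UTH1/SIM1/SUN4 (Spar_9.50), 1.52 for BCY1, 1.52 for SSE2/SSA3/KAR2/SSA1/SSE1/SSA2/ECM10/SSA4/SSC1 (Spar_12.48), 0.87 for HHT2/HHT1 (Spar_14.330) and 0.63 for RPA190. The lower values began with -3.37 for SDH2, a call lost without deletion replicate B at 30 min (-2.69). Its wild type mean at 30 min was under the 5.49 to 7.23 CPM that 3 counts were worth there. Then came -3.03 for NDE2/NDE1/NDI1 (Spar_13.21), -2.80 for RPM2, -2.69 for CIT2/CIT1 (Spar_3.84), -2.52 for CIT2/CIT1 (Spar_14.363) and -2.46 for MUP1. These were followed by -2.43 for ZRT2/ZRT1 (Spar_7.13), -2.41 for HSP30/MRH1/YRO2 (Spar_2.202), -1.60 for PHO11/PHO12/PHO3/DIA3/PHO5 (Spar_2.251), -1.53 for FIT2, -1.52 for RPL7A/RPL7B (Spar_16.125) and -1.41 for CYC1/CYC7 (Spar_10.315). Next came -1.37 for TMA19, -1.31 for ALD4/ALD5/ALD6 (Spar_15.593), -1.24 for PHO84, -1.11 for ATP3 and -1.08 for RPS10A/RPS10B (Spar_13.412). Smallest were -1.01 for PDC6/PDC5/PDC1/THI3 (Spar_12.120), -0.86 for RPS3, -0.85 for SSB2/SSB1 (Spar_14.132), -0.78 for CHS2/CHS1 (Spar_2.180), -0.65 for CLN3 and -0.52 for RPL3.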

How the results depend on the processing

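Scaling and depth moved the counts most. With library totals alone 1713 genes were higher and 300 lower in the deletion, and 728 had a higher change than in wild type. With no filter on low counts 688 were higher and 566 lower, and 614 had a higher and 303 a lower change than in wild type. After thinning the lag libraries to the shallowest, which left 1014 genes, 73 were higher and 101 lower, and the difference was higher for 36 and lower for 72. Leaving out each library in turn gave 226 to 374 higher, 511 to 774 lower, 284 to 346 with a higher difference and 302 to 410 with a lower one. The replicate block gave 350 higher, 660 lower, 338 and 351. Whether letters pair cultures was not settled. Departures from the group means correlated at 0.05, 0.026 and 0.021 for same-letter libraries in the deletion over 2580 genes. Different letters gave -0.06 to 0.043. In wild type the values were 0.01, 0.049 and 0.081 for the same letter and -0.067 to 0.017 for different letters. With means of 3 libraries, 1 of them shallow in the deletion, such small values cannot decide the question. Signs turned for RPA190 (0.11 with library totals, 0.19 thinned), RPL3 (0.05, library totals), ALA1 (0.02, library totals), ACT1 (0.20 with library totals, 0.23 thinned), NOP1 (0.02, thinned), MUP1 (0.01, thinned), PHO11/PHO12/PHO3/DIA3/PHO5 (Spar_8.343; 1.23, thinned) and HSP12 (0.03 without replicate B at 30 min, with -0.95 to 0.03 over the libraries left out). The cause was not tested beyond the fewer genes and counts of the thinned set. Over the alternatives for the genes printed, 2131 values kept direction and side of the threshold, 99 lost the call, 4 gained it and 10 turned. Of the 99, 40 were in the thinned fit, which the calls noted as lost above leave out. Among these were the calls in the deletion of NOP58, SNU13, GCD1, KGD2, HHF2/HHF1 (Spar_14.331), CAR2, ERG5, IDI1, RPN6 and STE3. Depth limits low genes in replicate A at 30 min, where a reading of 0 allows 80.9 CPM.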

Other observations

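For the lists here, 7.97% of all genes were higher and 14.7% lower in the deletion. In wild type 16.7% were higher and 19.8% lower, and 7.82% had a lower change in the deletion than in wild type. Hexose transport and glucose sensing had 2 of 24 genes higher and 3 lower in the deletion, against 6 and 1 in wild type, and the change was lower than in wild type for 7. With library totals alone in place of TMM factors 7 were higher and 1 lower in the deletion. Trehalose and glycogen genes, the stores of sugar, had 1 of 17 higher in the deletion and 5 in wild type (6 in the deletion with library totals). Of the genes for autophagy and vacuolar proteases 2 of 22 were higher and 4 lower, against 7 and 6 in wild type (5 and 1 in the deletion with library totals). On the list of peroxisome and fatty acid oxidation genes 1 of 25 was higher and 1 lower (FAA2, which activates fatty acids, at -0.79), against 7 higher in wild type (10 in the deletion with library totals). Mitochondrial ribosomal proteins gave 2 lower of 69 (MRPS12 at -0.72 and RSM7 at -0.60), where 14.7% of all genes were lower. With library totals 14 of them were higher, and their share of all counts went from 0.278% ± 0.00709 (SD, n = 3) to 0.367% ± 0.00950. Of the haploid-specific mating genes 2 of 17 were lower (RME1/SPP41 (Spar_4.834) at -0.54 and STE20 at -0.38; 7 higher with library totals), and of the meiosis genes 1 of 8, YGP1/SPS100 (Spar_14.179).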
